A study of Homo sapiens with 9 samples.

Results

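The MTTP knockout clone Mko-3 was compared with its parental Huh-7 control cells over all genes, on the raw counts of 3 libraries per group, 6 of the 9 libraries of the series. Of 58735 genes in the count table, 15745 passed the filter on low counts and were tested. Huh-7 is a human hepatoma cell line, and Mko-3 is 1 clone of it, labelled as deficient in the MTTP gene. An effect of this deficiency and a property of that clone cannot be told apart. The remaining 3 libraries come from Ako-3, a Huh-7 clone whose APOB gene was disrupted with CRISPR/Cas9, and were used here only to ask where Mko-3 differs from another knockout clone. All cells were kept in DMEM with 10% fetal bovine serum and spent the night before RNA isolation in medium without serum, and the labels call the 3 libraries of each group biological replicates. The guides that made Mko-3, and whether its libraries were prepared together with those of the control cells, are not given in the sources used here.

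MTTP encodes the large subunit of the microsomal triglyceride transfer protein (MTP), which works in the lumen of the endoplasmic reticulum (ER) as a complex with protein disulfide isomerase, the product of P4HB. MTP moves triglyceride and other lipids onto apolipoprotein B (apoB), the product of APOB, while apoB is being made, and without this step hepatocytes and enterocytes secrete almost no apoB-containing lipoproteins. Inherited loss of MTP causes abetalipoproteinemia.

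A gene was called when its log2 fold change reached 1 in either direction and its p, adjusted by the Benjamini-Hochberg method, was at most 0.05 in edgeR's quasi-likelihood test. Levels are given as CPM, counts scaled to library size with TMM factors, which are comparable between libraries but not between genes of different length. In Mko-3 cells 602 of the 15745 genes tested (3.82%) were called higher and 1137 (7.22%) were called lower, and the median log2 fold change over all of them was -0.01. Of the called genes, 499 of those higher and 732 of those lower are protein coding. The sign ± gives the SD of the 3 libraries for a level and the SE of the fit for a log2 fold change. The words rose and fell are kept below for genes that were called. Control and Mko-3 libraries separated along the main principal component (59.4% of the variance), and libraries of 1 group lay at most 45.2 units apart, against at least 60.4 units between groups. Total counts per library ran from 14638727 to 17865495, and mitochondrial genes took 5.52 to 6.17% of the counts in both groups together. Control replicate 2 had the lowest total and stood apart from the other control libraries in several genes described below, where its values are given.

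MTTP itself (ENSG00000138823, chr4:99563761-99623999, plus strand) fell in every Mko-3 library. Its level was 636, 604 and 664 CPM in the control libraries and 87.4, 90.8 and 83.0 CPM in the Mko-3 libraries, so the groups were far apart and did not overlap. The log2 fold change was -2.88 ± 0.07 (SE, n = 3 per group, edgeR adjusted p = 9.4e-19). MTTP mRNA therefore remained detectable, with 1271 to 1587 counts in each Mko-3 library. Ako-3 libraries held 573 ± 29.4 CPM (SD, n = 3), and the direct comparison of the clones gave a log2 fold change of -2.72 for Mko-3. The study measured this transcript by PCR in control Huh-7 cells and APOB knockout clones, and reports no such value for Mko-3. The primer pair is shown here to mark a coding part of the mRNA. The forward primer lies in exon 2 at chr4:99582035-99582055 and the reverse primer in exon 3 at chr4:99583479-99583499 on the opposite strand (hg38, transcript ENST00000265517.10 with 18 exons), and the product spans 184 bases of mRNA.
MTTP forward primer: tgtggccttactatggaggaa
MTTP reverse primer: aaggagcgtaggtctttgcag

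APOB, which encodes the protein that MTP loads with lipid, was not called. Its level was 2688, 3513 and 3878 CPM in control and 3119, 3412 and 3254 CPM in Mko-3, and the Mko-3 values lay inside the range of the control libraries (log2 fold change -0.05 ± 0.12, edgeR adjusted p = 0.743). The sign of this small value turned when control replicate 3 was left out (0.0613). Against Ako-3, where the targeted gene is APOB, Mko-3 held more APOB mRNA (log2 fold change 1.31, edgeR adjusted p = 4.2e-28). Among 24 tested genes of lipoprotein assembly and export, MTTP was the only one called, and the list's median log2 fold change was -0.05 (-0.01 without control replicate 2). Of 15 tested apolipoproteins other than apoB, APOL1, a minor apolipoprotein of high-density lipoprotein, was the only one called: it rose from 1.36 ± 0.546 to 7.5 ± 1.5 CPM (SD, n = 3). The median of the apolipoprotein list was -0.23, and 9 of its 15 members were lower.

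**Figure D1:**
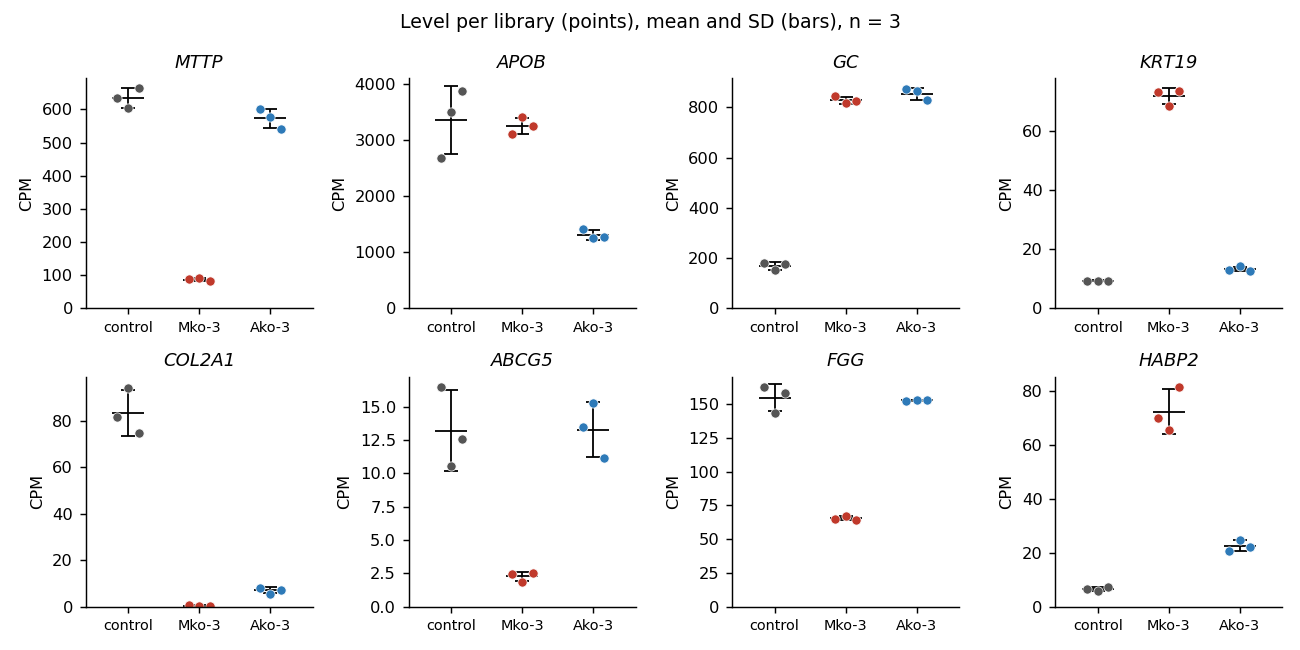
Level in CPM (linear axes from 0) of 8 genes in each library of the control, Mko-3 and Ako-3 groups, with 1 point per library and bars for the mean and SD (n = 3). MTTP, COL2A1, ABCG5 and FGG lie lower in all 3 Mko-3 libraries than in every control library, KRT19, GC and HABP2 lie higher, and the APOB points of control and Mko-3 overlap.

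The largest falls among well-expressed genes were in matrix, signaling and sterol export genes. COL2A1, which encodes the chain of type II collagen of cartilage, fell from 81.5, 94.2 and 74.5 CPM in control to 0.567, 0.458 and 0.327 CPM in Mko-3, a log2 fold change of -7.50 ± 0.16 (SE). The Mko-3 values rest on 5 to 10 counts per library. COL6A1, a chain of type VI collagen, fell from 67.2 ± 7.75 to 9.44 ± 1.67 CPM. FGFR1, a receptor for fibroblast growth factors, fell from 32.2 ± 2.73 to 3.51 ± 0.697 CPM (log2 fold change -3.21), and SHANK3, a scaffold protein of the postsynaptic density, fell from 56.8 ± 1.92 to 6.12 ± 0.342 CPM (-3.23). CPE, carboxypeptidase E of peptide hormone processing, fell by 2.82 on the log2 scale and is one of the chromosome 4 genes described below. KANK3, HACD1, an enzyme of very long chain fatty acid elongation, PTP4A3, a tyrosine phosphatase, and ABCG5 completed these falls with log2 fold changes of -2.85, -2.66, -2.46 and -2.55. In the direct comparison all 9 of these genes other than MTTP were also called lower in Mko-3 than in the Ako-3 clone, from -3.94 for COL2A1 to -1.11 for PTP4A3 on the log2 scale.

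The largest rises included a biliary keratin, a secreted protease and the vitamin D binding protein. KRT19, a keratin of bile duct cells, was 9.47, 9.38 and 9.45 CPM in control and 73.5, 68.7 and 73.6 CPM in Mko-3, with almost no spread inside either group (log2 fold change 2.92 ± 0.09, edgeR adjusted p = 1.8e-16). HABP2, a plasma serine protease, rose from 6.58 ± 0.644 to 72.5 ± 8.31 CPM (3.44), and TM4SF4, a tetraspanin-like membrane protein, rose from 25.3 ± 2.64 to 138 ± 4.95 CPM (2.43). GC, the vitamin D binding protein of plasma and a chromosome 4 gene that lies before MTTP, rose from 169 ± 15.3 to 828 ± 14.9 CPM (2.28). Ako-3 held 855 ± 23.8 CPM of GC, and of the 10 largest rises GC was the only one whose adjusted p between the clones was above 0.05 (log2 fold change -0.05, edgeR adjusted p = 0.297). LINC01559, a long noncoding RNA, rose by 4.18, HKDC1, a hexokinase-like gene, by 2.57, CEACAM7 by 2.44, RASEF by 2.42 and CCDC80 by 2.36 on the log2 scale. HSPA8, the constitutive cytosolic HSP70 chaperone, was 122, 203 and 122 CPM in control and 1022, 1043 and 1099 CPM in Mko-3. The groups did not overlap, control replicate 2 was the highest control library, and the error was wide (log2 fold change 2.82 ± 0.25, edgeR adjusted p = 0.00077). KRT19, HABP2, TM4SF4, LINC01559, HKDC1, CEACAM7 and RASEF were called higher in Mko-3 against Ako-3 as well, and there 351 of 15528 genes (2.26%) were called higher and 539 (3.47%) lower.

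Transcripts of the hepatocyte lineage were present in both groups. All 29 hepatocyte markers on the list were tested, and only ASGR1, a subunit of the asialoglycoprotein receptor, was called: it fell from 195 ± 17.2 to 90.4 ± 4.25 CPM (log2 fold change -1.12). ALB, serum albumin, was at 8697 ± 295 CPM in control and 6251 ± 140 CPM in Mko-3 (-0.49, not called), and AFP, the fetal albumin relative, was at 3461 ± 81.5 and 6058 ± 219 CPM (0.80, not called). The list's median was -0.18. Among markers of other cell types, 4 of 10 fibroblast and stellate markers, 3 of 8 endothelial markers and 2 of 10 blood and Kupffer markers were tested, and none of these was called (medians -0.66, -0.61 and 0.29). At most 3 counts in every library were found for 5 of 10, 5 of 8 and 6 of 10 of these markers in control and for 4, 4 and 5 in Mko-3. Their summed levels were 19.7 to 21.2 CPM in control and 12.6 to 16 CPM in Mko-3 for fibroblasts, 76.8 to 87.4 and 55.5 to 61.0 CPM for endothelium, and 268 to 293 and 336 to 362 CPM for blood, the last almost all from LYZ. Of 10 markers of bile duct and other epithelium 6 were tested and 2 rose (33.3%, beside 3.82% of all genes). They were KRT19 and EPCAM, an epithelial adhesion protein (from 80.6 ± 8.79 to 183 ± 5.62 CPM, log2 fold change 1.17). The 6 were evenly divided, with 3 higher and 3 lower. Of the lower ones 2 had an edgeR adjusted p of at most 0.05, and none was called. The summed level of that list was 822 to 870 CPM in control and 911 to 945 CPM in Mko-3, its median was 0.13 (0.06 to 0.28 when 1 library was left out, without control replicate 3 and 1), and KRT7, KRT5 and KRT14 were at 0 counts in every library of both groups. The part of other cells in these values was not tested.

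Genes of DNA replication were higher in Mko-3 cells. The helicase subunits, polymerases, clamp and ligase of the replication fork copy DNA in S phase, and many of them, like the genes of the G1/S transition, carry sites for E2F factors near their start. Of 44 tested replication fork genes 40 were higher, 19 were called higher (43.2%, beside 3.82% of all genes) and none was called lower, with a median log2 fold change of 0.78. Of 38 tested G1/S and E2F target genes 37 were higher and 17 were called higher (44.7%), with a median of 0.85. Of 46 tested mitosis genes 33 were higher but only NCAPG, a condensin subunit, was called, and the median was 0.23. GINS2, a subunit of the replicative helicase, was 10.2, 15.2 and 9.12 CPM in control and 32.2, 35.6 and 37.4 CPM in Mko-3 (log2 fold change 1.61 ± 0.14, edgeR adjusted p = 1.8e-07), and control replicate 2 was the highest of the control libraries. LIG1, the replicative DNA ligase, rose from 26.9 ± 5.27 to 55.7 ± 1.89 CPM, CLSPN, which encodes the checkpoint mediator claspin, from 5.70 ± 2.08 to 24.6 ± 1.62 CPM, and GINS3 from 2.99 ± 0.478 to 8.01 ± 0.372 CPM. Of the G1/S genes, SLBP, the histone mRNA binding protein, rose by 1.35, CDC25A, a phosphatase that activates cyclin-dependent kinases, by 1.43, CHAF1B, a histone chaperone subunit, by 1.26 and UNG, uracil DNA glycosylase, by 1.09 on the log2 scale.

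The control libraries differed among themselves in these genes. The summed level of the 44 replication fork genes was 1861, 2678 and 1865 CPM in control and 4076, 4149 and 4251 CPM in Mko-3, so control replicate 2 was high but below every Mko-3 library. Without control replicate 1 the replication fork genes called higher numbered 12, and without control replicate 2 they numbered 22. The G1/S genes called higher ranged from 12 without control replicate 3 to 19 without control replicate 2, and the mitosis genes from 0 without control replicate 1 to 4 without control replicate 2. The 6 called genes among 31 tested genes of base excision repair (LIG1, UNG, POLD3, FEN1, PCNA and POLE) all belong to the replication fork or G1/S list as well, and the median of that list was 0.14. FEN1, the flap endonuclease, was 44.2, 79.3 and 40.6 CPM in control and 191, 188 and 205 CPM in Mko-3 (log2 fold change 1.83 ± 0.30, edgeR adjusted p = 0.00693). In Ako-3 cells the summed level of the replication fork genes was 4144 to 4404 CPM, and in the direct comparison of the clones none of the 44 genes was called in either direction (median log2 fold change 0.06). Both clones are read against the same 3 control libraries, so the part of those libraries in the difference was not tested.

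Promoter sequences of these genes were searched for E2F letters, and a few replication fork promoters that hold them are shown. Of 44 replication fork genes 37 matched a promoter in the RefSeq table (GRCh38.p14, 250 bases before to 50 after the start). One of the words TTTGGCGC, TTTCCCGC, TTTCGCGC or TTTGCCGC was found on either strand in 17 of them (45.9%), beside 908 of all 27305 promoters (3.33%), in 13 of 33 G1/S promoters (39.4%) and in 2 of 39 mitosis promoters (5.13%). Among replication fork genes called higher, 11 of 14 with a promoter held one, against 5 of 16 for the called G1/S genes and 0 of 1 for mitosis. Many genes of the replication fork and G1/S lists were known beforehand to carry such sites. Shares above that of all promoters, which include untested genes, were thus given by the choice of lists and describe the lists only. The stretches below are written 5′ to 3′ along the gene's strand, with the word or its complement in capitals: LIG1 at chr19:48170436-48170473 (minus), GINS2 at chr16:85688963-85689000 (minus), POLA1 at chrX:24693766-24693803 (plus) and MCM6 at chr2:135876507-135876544 (minus).
LIG1: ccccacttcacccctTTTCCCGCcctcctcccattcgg
GINS2: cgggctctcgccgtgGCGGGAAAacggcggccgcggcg
POLA1: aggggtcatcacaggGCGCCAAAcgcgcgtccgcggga
MCM6: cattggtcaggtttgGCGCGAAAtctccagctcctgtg

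ER chaperones were higher and ATF4 target genes were lower in the same libraries. When proteins misfold in the ER, the sensors ATF6 and IRE1 (encoded by ERN1), the latter through XBP1, raise chaperone genes, while the kinase PERK acts through the translation factor eIF2α and the transcription factor ATF4 on amino acid and stress genes. Of 33 tested chaperone and sensor genes 30 were higher, 22 of them with an edgeR adjusted p of at most 0.05, and 5 were called higher (15.2%, beside 3.82% of all genes), with a list median of 0.42. The summed level of this list was 8291 to 9043 CPM in control, 11950 to 12145 CPM in Mko-3 and 11119 to 11307 CPM in Ako-3. In the direct comparison of the clones none of the 33 was called in either direction (median log2 fold change 0.11). HSPA5, the chaperone BiP, was 573, 711 and 572 CPM in control and 1314, 1292 and 1253 CPM in Mko-3, and the groups did not overlap (log2 fold change 1.05 ± 0.07, edgeR adjusted p = 7.9e-10). MANF, a secreted ER stress protein, rose from 40.1 ± 5.04 to 111 ± 0.408 CPM, CRELD2, another ER stress protein, from 41.1 ± 6.58 to 89.5 ± 2.71 CPM, and DNAJB9, a cochaperone of BiP, from 17.4 ± 0.860 to 37.1 ± 2.43 CPM. SDF2L1 was the remaining called gene, and 4 of the 5 lie between 1.02 and 1.12 on the log2 scale, so that 3 were called without control replicate 1 or 3 and with upper quartile scaling. The upstream genes gave other values: ATF6 was at 55.9 ± 4.23 CPM in control and 45.2 ± 3.17 CPM in Mko-3 (-0.32), XBP1 at 497 ± 23.4 and 431 ± 7.32 CPM (-0.22), and ERN1 at 61.8 ± 4.13 and 33.0 ± 2.85 CPM (-0.91), and none of these was called.

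The mRNA of ATF4 was at 514 ± 43.4 CPM in control and 459 ± 6.42 CPM in Mko-3 (log2 fold change -0.17, edgeR adjusted p = 0.0237), which was not called. Of its 38 tested target genes 35 were lower and 13 were called lower (34.2%, beside 7.22% of all genes), none was called higher, and the median log2 fold change was -0.59. ASNS, asparagine synthetase, was 22.2, 18.6 and 20.1 CPM in control and 4.25, 3.72 and 3.14 CPM in Mko-3 (-2.46 ± 0.14, edgeR adjusted p = 1.1e-11). CHAC1, which degrades glutathione, fell from 56.6 ± 4.64 to 15.1 ± 1.27 CPM, CEBPB, a transcription factor, from 466 ± 44.2 to 192 ± 3.45 CPM, and PPP1R15A, the stress-induced subunit that dephosphorylates eIF2α, from 134 ± 12.3 to 51.5 ± 0.689 CPM. The calls of this list numbered 13 or 14 when any 1 library was left out. FGF21, a hepatokine in this list, was at 1.22 ± 0.208 CPM in control and 0.0596 ± 0.0569 CPM in Mko-3, where its counts are at the floor of 3 per library, so no fold change is given. The sum over the 38 genes was 5330 to 5599 CPM in Ako-3 and 5502 to 5656 CPM in Mko-3, and 1 gene in each direction was called between the clones.

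The ER stress element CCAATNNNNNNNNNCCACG was found on either strand in 6 of 31 promoters of the chaperone list (19.4%), beside 0.0806% of all 27305. A composite C/EBP-ATF element, TGATGNAAT or TGATGNAAC, was found in 6 of 32 promoters of the ATF4 target list (18.8%), beside 1.80% of all. Among the called genes with a promoter, 2 of 5 chaperone genes held the former and 3 of 10 ATF4 targets the latter. Both lists hold genes known for these pathways, so shares above those of all promoters were given by the choice of lists and describe the lists only. The promoters of the called genes HSPA5 (chr9:125241376-125241424, minus), CRELD2 (chr22:49918539-49918587, plus), CHAC1 (chr15:40953246-40953284, plus) and ASNS (chr7:97872453-97872491, minus) show the letters, from RefSeq GRCh38.p14, with the element or its complement in capitals. For comparison, the sterol element TCACNCCAC was found in 1 of 28 promoters of the cholesterol list (3.57%, beside 1.15% of all). In HSPA5 the element ends 47 bases before the start site.
HSPA5: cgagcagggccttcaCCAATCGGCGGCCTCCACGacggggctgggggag
CRELD2: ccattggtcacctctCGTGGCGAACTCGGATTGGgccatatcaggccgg
CHAC1: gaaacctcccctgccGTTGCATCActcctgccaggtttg
ASNS: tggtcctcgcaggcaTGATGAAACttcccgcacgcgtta

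**Figure D2:**
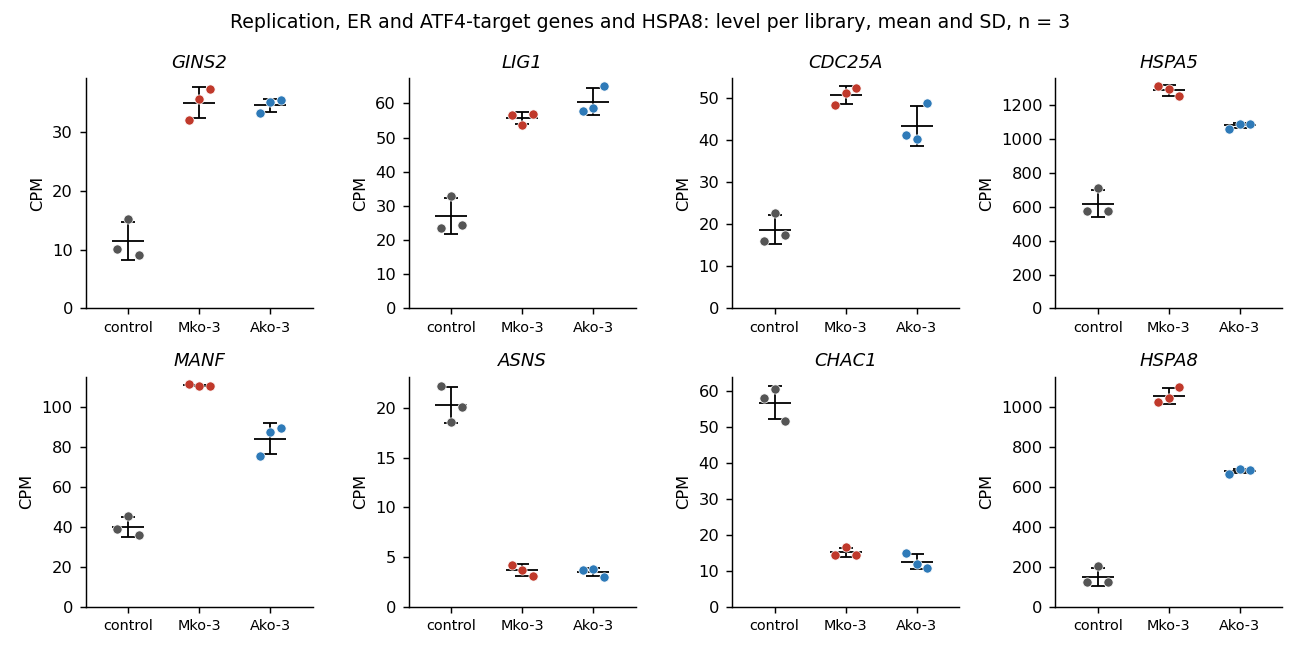
Level in CPM (linear axes from 0) of 8 genes per library in control, Mko-3 and Ako-3, with the mean and SD (n = 3). GINS2, LIG1, CDC25A, HSPA5, MANF and HSPA8 are higher in all Mko-3 than in all control libraries, ASNS and CHAC1 are lower, and control replicate 2 (the middle control point) is the highest control for GINS2, LIG1, CDC25A, HSPA5, MANF and HSPA8.

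Called genes of lipid storage and synthesis were mostly lower, as were called genes as a whole (1137 lower and 602 higher). Of 26 tested lipid droplet and lipolysis genes 5 fell (19.2%, beside 7.22% of all genes) and 1 rose (3.85%, beside 3.82%), with a median of -0.08 (-0.12 without Mko-3 replicate 2). By an edgeR adjusted p of at most 0.05 alone, 10 of them were higher and 10 lower. The summed level of this list was 1901 to 1965 CPM in control and 2057 to 2070 CPM in Mko-3, so it was not lower in Mko-3. G0S2, an inhibitor of the triglyceride lipase ATGL, fell from 5.57 ± 0.916 to 1.28 ± 0.367 CPM, PLIN5, a perilipin of oxidative tissues, from 7.51 ± 1.47 to 2.11 ± 0.554 CPM, and TMEM159, the lipid droplet assembly factor now named LDAF1, from 5.76 ± 0.470 to 2.37 ± 0.533 CPM. AADAC, an arylacetamide deacetylase with lipase activity, rose from 56.1, 61.1 and 56.9 CPM to 128, 131 and 129 CPM (log2 fold change 1.15 ± 0.07), and Ako-3 was close to Mko-3 at 134 CPM. Of 24 tested fatty acid synthesis genes 2 fell (8.33%, near the 7.22% of all genes). MLXIPL, which encodes the glucose-responsive transcription factor ChREBP, fell from 69.4, 58.1 and 66.3 CPM to 15.9, 16.3 and 12.4 CPM (-2.13 ± 0.10, edgeR adjusted p = 7.3e-13), and ELOVL4, an elongase of very long chain fatty acids, fell from 5.53 ± 0.842 to 0.578 ± 0.154 CPM. The median of the list was -0.18. Of 27 triglyceride and phospholipid synthesis genes (median -0.15) 2 fell (7.41%, near the 7.22% of all genes). They were MOGAT3, a monoacylglycerol acyltransferase (-1.10), and GPD1, glycerol 3-phosphate dehydrogenase (-1.13), whose control and Mko-3 libraries overlapped.

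Of 25 tested genes of fatty acid uptake and activation 4 fell (16%, beside 7.22% of all genes) and 1 rose, with a median of -0.15 (-0.08 without control replicate 1). ACSM2A, which has a near-identical neighbour copy, and ACSM1, both of which activate medium-chain fatty acids, fell by 1.08 and 1.39, and SLC27A1, a fatty acid transporter, by 1.38 on the log2 scale. FABP5, a fatty acid binding protein, rose by 1.01, close enough to the threshold that it lost its call in some of the alternative settings. Among 44 genes of fatty acid oxidation and ketogenesis 3 fell (6.82%, near the 7.22% of all genes) and 2 rose (4.55%, near 3.82%). The median was -0.09 (-0.15 and -0.16 without control replicate 2 or 3). PPARGC1A, the coactivator PGC-1α, fell from 2.04 ± 0.547 to 0.231 ± 0.146 CPM. In arachidonic and linoleic acid metabolism 8 of 29 fell (27.6%, beside 7.22% of all genes) and 3 rose (10.3%, beside 3.82%), with a median of -0.11 (-0.17 without Mko-3 replicate 1), among them CYP4F3, a leukotriene hydroxylase (-1.35), PTGIS, prostacyclin synthase (-1.09), and GPX2, a glutathione peroxidase (1.03).

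Most genes of cholesterol synthesis and uptake had lower values in Mko-3 cells, with few calls. In this list 30 of 38 genes were lower, 23 of them with an edgeR adjusted p of at most 0.05, and the median was -0.28, but only the exporters ABCG5, ABCG8 and ABCG1 were called (7.89%, beside 7.22% of all genes, and 5 genes with upper quartile scaling). ABCG5 and ABCG8 form the heterodimer that moves cholesterol and plant sterols into bile. ABCG5 was 16.5, 10.6 and 12.6 CPM in control and 2.44, 1.89 and 2.55 CPM in Mko-3 (log2 fold change -2.55 ± 0.19, edgeR adjusted p = 5.3e-10), and ABCG8 fell from 32.4 ± 2.02 to 9.19 ± 2.77 CPM. Ako-3 held 13.3 ± 2.06 CPM of ABCG5 and 50.2 ± 1.82 CPM of ABCG8, and in the direct comparison the log2 fold changes of Mko-3 were -2.54 and -2.44. MSMO1, a C4-methylsterol oxidase of cholesterol synthesis on chromosome 4, was 366, 385 and 381 CPM in control and 193, 211 and 183 CPM in Mko-3, just short of the fold threshold (-0.96 ± 0.06). In the bile acid list (median -0.19) 3 of 23 genes rose (13%, beside 3.82% of all genes), among them AKR1D1, a steroid 5β-reductase (from 3.45 ± 0.584 to 14.2 ± 0.718 CPM), and 2 fell (8.7%, beside 7.22%), SLC51B, a bile acid exporter subunit (-1.02), and SLC27A5, a bile acid CoA ligase (-2.09).

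Secreted plasma proteins moved in both directions. Of 23 tested acute phase genes 7 fell (30.4%, beside 7.22% of all genes), none rose, and the median log2 fold change was -0.45. HP, haptoglobin, was 39.7, 37.0 and 36.7 CPM in control and 12.2, 14.2 and 9.67 CPM in Mko-3 (-1.65 ± 0.11, edgeR adjusted p = 1.3e-10), whereas Ako-3 held 110 ± 8.74 CPM. SAA2, a serum amyloid A, fell from 25.8 ± 5.72 to 10.7 ± 1.60 CPM and HAMP, the iron hormone hepcidin, from 5.11 ± 1.17 to 1.70 ± 0.348 CPM. In the direct comparison 10 of the 23 were called lower in Mko-3 than in Ako-3, beside 3.47% of all genes, with a median of -0.84. FGG, the gamma chain of fibrinogen, fell from 163, 143 and 158 CPM to 65.1, 67.4 and 64.5 CPM (-1.25 ± 0.07), while its neighbour FGB, the beta chain, was at 212 ± 5.72 CPM in control and 230 ± 8.97 CPM in Mko-3 (0.10, not called).

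Of 31 tested complement genes 5 fell (16.1%, beside 7.22% of all genes) and 2 rose (6.45%, beside 3.82%), with a median of -0.30. C1S, a protease of the classical pathway, rose from 83.7 ± 8.61 to 226 ± 10.6 CPM (log2 fold change 1.42), and MBL2, mannose-binding lectin, from 11.3 ± 1.87 to 28.2 ± 2.03 CPM. SERPING1, the C1 inhibitor, was at 60.6 ± 6.18 CPM in control and 122 ± 6.23 CPM in Mko-3, a log2 fold change of 0.99 ± 0.08 that missed the threshold narrowly. C8B, a subunit of the membrane attack complex, fell by 1.5 and CD55, a complement inhibitor of the cell surface, by 1.77 on the log2 scale. Of 32 coagulation and fibrinolysis genes 2 rose and 2 fell (6.25% each, near the shares of all genes), and the median of -0.08 turned to 0.01 without Mko-3 replicate 2 and was -0.05 without control replicate 2. They were CPB2, a fibrinolysis inhibitor (1.56), TFPI2, a protease inhibitor (1.22), FGG, and SERPINF2, the plasmin inhibitor (-1.10).

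Enzymes of steroid and drug metabolism showed the same mixture. Of 26 tested UDP-glucuronosyltransferase and steroid genes 7 rose (26.9%, beside 3.82% of all genes) and 4 fell (15.4%, beside 7.22%), with a median of 0.07 that ran up to 0.13 without control replicate 3 and turned to -0.03 when 10 counts were required in every library. AKR1C1 and AKR1C2, hydroxysteroid dehydrogenases of nearly the same sequence, fell from 59.0 ± 2.82 to 15.4 ± 1.06 CPM and from 32.0 ± 4.27 to 11.5 ± 0.429 CPM, and how reads were shared between such copies is uncertain. SRD5A3, a steroid reductase, rose by 1.48 on the log2 scale. Of 29 cytochrome P450 genes 8 fell (27.6%, beside 7.22% of all genes) and 4 rose (13.8%, beside 3.82%), with a median of -0.27 (-0.14 without control replicate 1). CYP2B6, a drug-metabolizing enzyme, rose from 15.9 ± 1.15 to 39.0 ± 3.78 CPM, while CYP4F12 fell from 61.8 ± 2.89 to 25.3 ± 0.854 CPM and CYP2W1 from 11.4 ± 2.02 to 2.55 ± 0.669 CPM. Of 5 tested metallothioneins, small metal-binding proteins with near-identical copies, 3 fell (60%, beside 7.22% of all genes) and 1 rose (20%, beside 3.82%). Their median was -1.32. MT2A fell from 47.1 ± 9.22 to 9.0 ± 0.872 CPM, MT1G by 3.18 and MT1F by 1.32 on the log2 scale, and MT1X rose from 0.456 ± 0.131 to 1.66 ± 0.194 CPM. MT2A was at 3.38 ± 1.25 CPM in Ako-3, below Mko-3 (log2 fold change 1.43 for Mko-3 against Ako-3).

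Matrix and signaling genes also moved both ways. Of 21 tested collagens 7 fell (33.3%, beside 7.22% of all genes) and 4 rose (19.0%, beside 3.82%), with a median of -0.24 that turned to 0.07 when 10 counts were required in every library. COL1A2 was at 3.25 ± 0.770 CPM in control and 0.374 ± 0.0690 CPM in Mko-3, and COL14A1 rose from 22.7 ± 3.24 to 48.6 ± 1.35 CPM. Of 50 other matrix genes 8 rose (16%, beside 3.82% of all genes) and 5 fell (10%, beside 7.22%), with a median of 0.11 (0.17 without control replicate 3). LOXL4, a lysyl oxidase that crosslinks collagen, rose from 28.5 ± 1.58 to 71.4 ± 4.06 CPM, and Ako-3 held 28.3 ± 1.47 CPM. NID2, a basement membrane protein, rose by 1.10, LTBP1, which binds latent TGF-β, by 1.11, and TIMP3, a metalloproteinase inhibitor, fell by 1.04 on the log2 scale. Of 51 tested MAPK ligands and feedback genes 5 fell (9.8%, beside 7.22% of all genes) and none rose, with a median of -0.23, and FGFR1, given above, had the smallest adjusted p. Of 9 ER autophagy receptors (median 0.09, and 0.15 without Mko-3 replicate 2) CALCOCO1 alone was called (11.1%, beside 7.22% of all genes called lower). It fell from 61.1 ± 6.17 to 28.9 ± 2.82 CPM (log2 fold change -1.09).

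**Figure D3:**
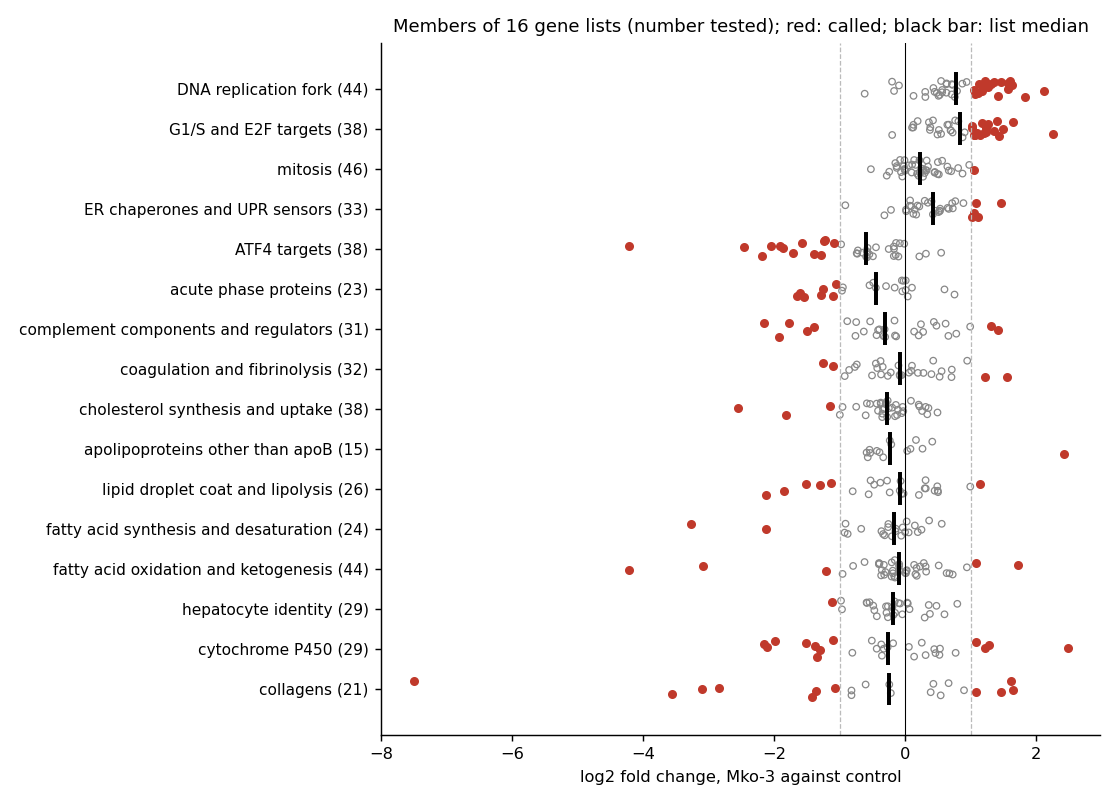
Log2 fold change of Mko-3 against control (horizontal axis) for the tested members of 16 gene lists, 1 point per gene, with called genes in red, other genes as open circles, the list median as a black bar and dashed lines at -1 and 1. The medians of the replication fork (0.78) and G1/S (0.85) lists lie to the right of 0 and that of the ATF4 targets (-0.59) to the left, while those of the lipid droplet (-0.08), fatty acid oxidation (-0.09) and fatty acid synthesis (-0.18) lists lie closer to 0.

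Genes on the long arm of chromosome 4 beyond MTTP were lower as a group, with a small median change and a wide spread (quartiles -0.60 and 0.04). Of 1136 genes that start after the end of MTTP, 231 were tested, 164 of these (71.0%) were lower in Mko-3, beside 51.0% of all genes tested, and the median log2 fold change was -0.24, a fitted change of -15.6%. Of the 231 genes 19 (8.23%) were called lower, a share near the 7.22% of all genes, and 3 (1.30%) were called higher, beside 3.82% of all genes. With an edgeR adjusted p of at most 0.05 and no fold threshold, 92 (39.8%) were lower and 22 (9.52%) higher, beside 27.1% and 26.9% of all genes. The group was pointed out with results of these data in view, and its values are therefore a description.

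The lower values lay between MTTP and the last part of the chromosome. The 187 tested genes in the first 50 Mb of chromosome 4 had a median of 0.10 and the 166 genes from there to MTTP a median of 0.09. The 198 genes from MTTP to 180 Mb had a median of -0.30, with 149 (75.3%) lower, and the 33 genes from 180 Mb on had a median of 0.13. The end at 180 Mb was not among the planned divisions, and it leaves out genes with a positive median. The values up to 180 Mb are therefore a description. In windows of 10 Mb all 8 windows from 100 to 180 Mb had a negative median, between -0.42 and -0.14. For Ako-3 against the same control libraries, every window from 110 to 170 Mb was also negative, between -0.27 and -0.02. The Ako-3 windows from 100 to 110 Mb (0.03) and from 170 to 180 Mb (0.14) were positive. In the Mko-3 libraries taken singly, the median of this stretch up to 180 Mb relative to the control mean was -0.29, -0.25 and -0.24. In Ako-3 libraries it was -0.02, -0.06 and -0.09. In the control libraries, each relative to the mean of the other control libraries, it was -0.04, -0.03 and 0.07, so Mko-3 and control did not overlap. Over all tested genes beyond MTTP these medians were -0.26, -0.19 and -0.22 in Mko-3 and -0.03, -0.04 and 0.07 in control. Such separation was not particular to this stretch. Chromosome X as a whole (0.062 to 0.089 in Mko-3, -0.006 to 0.007 in control) did not overlap either. The same held for chromosome 8 (-0.107 to -0.071 in Mko-3, -0.021 to 0.019 in control), whereas the libraries overlapped for chromosome 2.

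Windows with medians this low occurred elsewhere too. Of 280 windows with at least 15 tested genes 33 had a median of at most -0.18, the lowest was 70 to 80 Mb of chromosome 6 (-0.42), and the next lowest were 140 to 150 Mb and 160 to 170 Mb of chromosome 4. Of the 8 chromosome 4 windows, those from 130 to 140 Mb and from 170 to 180 Mb hold 14 tested genes each, fewer than this minimum, so that at the minimum chromosome 4 has 2 runs of 3 windows below 0 (100 to 130 Mb and 140 to 170 Mb). The longest such run in the genome was the first 80 Mb of chromosome 10, where 8 windows had a median of -0.08. Among the other chromosomes taken whole, the lowest median was that of chromosome 8 (-0.12). The median GC content was 40.7% for the genes beyond MTTP, 41.0% for those between 50 Mb and MTTP and 47.9% for all genes. After the median of other chromosomes' genes in the same of 10 GC bins was subtracted, the medians were -0.22 beyond MTTP and 0.12 between 50 Mb and MTTP. In the direct comparison with Ako-3, which uses no control library, 160 of 227 tested genes beyond MTTP were lower in Mko-3 with a median of -0.19, and 14 were called lower and 4 higher. Of the 15296 genes tested in both fits, 7489 were lower, 465 were called lower and 350 higher. The median of Ako-3 against control was -0.06, from the same control libraries. DNA copy number was not measured, and its part and that of GC content in these values were not tested.

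**Figure D4:**
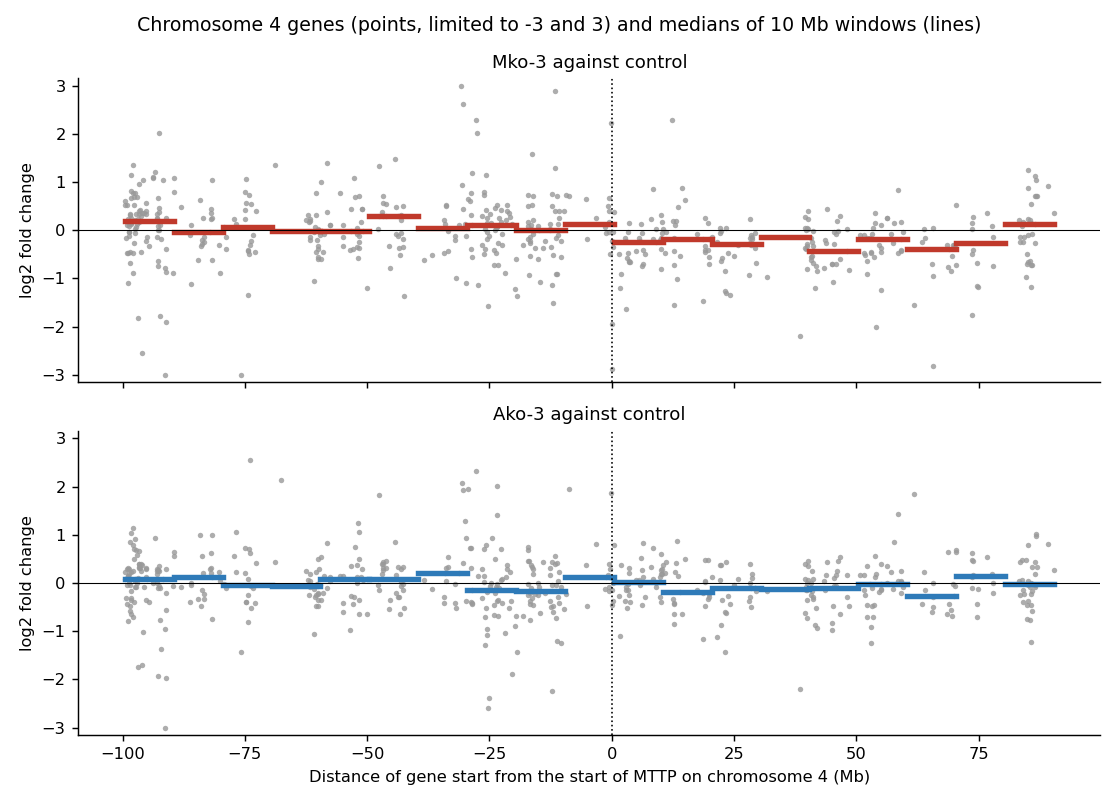
Log2 fold change of tested chromosome 4 genes (grey points, values past 3 drawn at the edge) against the distance of their start from the start of MTTP in Mb, for Mko-3 (upper panel) and Ako-3 (lower panel) against the same control libraries, with medians of 10 Mb windows as lines. In the Mko-3 panel the lines lie below 0 from MTTP on for 8 windows (-0.42 to -0.14) and above 0 in the last (0.13).

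Around MTTP the nearest genes did not move together. On the near side lie AP002026.1 (0.41), ADH5, ADH6, ADH1C and TRMT10A (-0.22), of which 3 encode alcohol dehydrogenases. ADH5, the glutathione-dependent formaldehyde dehydrogenase, was 243, 244 and 235 CPM in control and 243, 241 and 225 CPM in Mko-3 (log2 fold change -0.03), so its libraries overlapped. ADH6 was at 23.8 ± 1.90 and 17.0 ± 0.514 CPM (-0.50, not called), and ADH1C rose from 0.255 ± 0.0827 to 1.21 ± 0.0438 CPM, the only call among the 3 tested genes of the 7 in the alcohol dehydrogenase cluster (median -0.03). On the far side AC083902.1, which starts inside the interval of MTTP so that reads of the pair cannot be told apart, fell from 1.01 ± 0.185 to 0.255 ± 0.177 CPM. The next genes were not called: LAMTOR3, a lysosomal adaptor (-0.05), DNAJB14, an ER cochaperone (-0.34), H2AFZ, the histone variant H2A.Z (0.38), and PPP3CA, the catalytic subunit of calcineurin (-0.48).

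The genes called lower further along were spread over the stretch. FGG and CPE, given above, had the smallest adjusted p there, followed by ALPK1, an alpha kinase that senses bacterial sugars, which was 71.7, 57.3 and 76.6 CPM in control and 23.5, 24.7 and 22.7 CPM in Mko-3 (log2 fold change -1.55 ± 0.10, edgeR adjusted p = 7.1e-11). SNHG8, a small nucleolar RNA host gene, fell from 31.4 ± 1.35 to 11.3 ± 0.527 CPM, HPGD, which inactivates prostaglandins, from 42.5 ± 3.86 to 18.9 ± 0.523 CPM, and TLR2, a receptor for bacterial lipoproteins, from 3.71 ± 1.10 to 0.921 ± 0.274 CPM. SLC7A11, the cystine transporter and an ATF4 target, fell from 86.9, 101 and 101 CPM to 23, 24.2 and 16.3 CPM, and Ako-3 held 21.1 ± 0.680 CPM. ZNF330, CEP44 and NUDT6 fell by 1.19, 1.15 and 1.30 on the log2 scale. Against Ako-3, CPE (-2.32), FGG (-1.22), HPGD (-1.06) and TLR2 (-2.19) were also called lower in Mko-3, whereas ALPK1, SNHG8, SLC7A11, ZNF330, CEP44 and NUDT6 were not called. The latter were lower in Ako-3 than in the same control libraries as well. Their log2 fold changes there were -0.85, -1.16, -2.19, -0.88, -0.71 and -0.62, in that order. For CPE, FGG, HPGD and TLR2 they were -0.49, -0.03, -0.12 and 0.18.

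The most abundant transcripts per length beyond MTTP carried the small shift unevenly. By mean FPKM in control these were RPS3A and RPL34, ribosomal proteins, OSTC, an oligosaccharyltransferase subunit, FGB and MSMO1. RPS3A was 448, 425 and 424 CPM in control and 317, 317 and 309 CPM in Mko-3 (log2 fold change -0.47 ± 0.06, edgeR adjusted p = 5.1e-07), without overlap. RPL34 was at 217 ± 16.2 and 184 ± 3.47 CPM (-0.25), and OSTC at 115 ± 5.25 and 117 ± 4.88 CPM (0.02). In the list of 35 liver and metabolic genes of this stretch 32 were tested and 19 were lower, beside 164 of all 231 tested genes beyond MTTP. The list had 4 genes called lower (12.5%, beside 7.22% of all genes and 8.23% of those beyond MTTP). None was called higher, beside 3.82% of all genes, and the median was -0.15 (-0.09 without Mko-3 replicate 3).

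**Figure D5:**
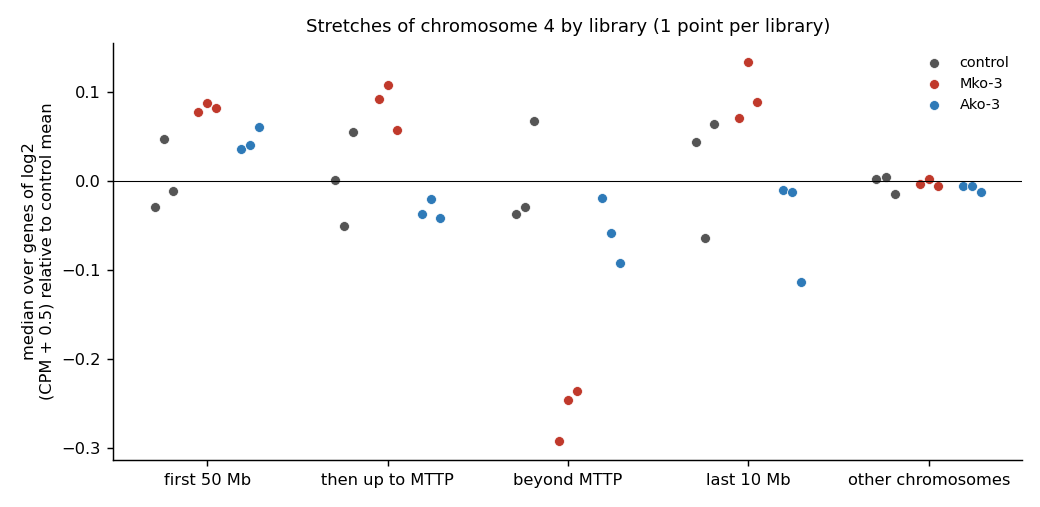
Median over genes of the log2 level in each library relative to the control mean (CPM plus 0.5), for 4 stretches of chromosome 4 in order and for all other chromosomes, with 1 point per library. Each control library is set against the mean of the other control libraries. The division at 180 Mb was not planned. In the stretch from MTTP to 180 Mb (marked beyond MTTP) the 3 Mko-3 libraries lie at -0.29 to -0.24, below the control (-0.04 to 0.07) and Ako-3 libraries (-0.09 to -0.02).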

How the data were processed

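RNA for 9 libraries (3 per group) had been purified with poly-T beads and sequenced as paired ends. The authors aligned the reads with HISAT2 2.0.5 to hg38, counted them per gene with featureCounts 1.5.0-p3, and deposited raw counts per gene. The processing notes also list GRCh37 and hg19, but the deposited interval of MTTP holds the hg38 positions of both of its PCR primers. Whether strand was used in counting is not given in the sources used here. The authors also deposited FPKM values, counts scaled by gene length and library size, which were used here only to order transcripts by abundance per length and in the principal component analysis (log2 of FPKM plus 1, 30466 genes).

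Groups and replicate numbers came from the labels. Tests used edgeR 4.0.16 in R 4.3.3 on the raw counts of the 6 libraries of a comparison, with TMM scaling, filterByExpr at a minimum count of 10 and a robust quasi-likelihood fit, and the standard error was taken as the log2 fold change divided by the square root of F. The thresholds (log2 fold change of at least 1, adjusted p of at most 0.05) follow the study. Groups whose libraries all had at most 3 counts were treated as at the floor, without fold change. The fit was first tested on simulated data. The spread between libraries measures 1 clone and its parental cells only.

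The 33 gene lists (954 symbols, of which 7 were matched through current names) and the members were chosen with earlier results of these data known, and lists overlap. Genes were named by a rule: MTTP and APOB, the genes the study measured by PCR, the 10 largest rises and falls with an average log2 CPM of at least 3 and libraries that did not overlap, up to 4 called genes per list by adjusted p, and, beyond MTTP, the 10 called genes with the smallest adjusted p, the 5 most abundant per length and the 5 nearest on each side. ALB, AFP, ERN1, PCNA, POLE, POLA1, MCM6, SDF2L1, KRT7, KRT5 and KRT14 were named after their values were seen. In 27 entries the gene name had become a date, and Ensembl identifiers were used. GC content came from GENCODE release 44 transcripts and was known for 99.5% of tested genes. The alternatives were DESeq2 1.42.0, other scalings, other filters, all 9 libraries together, the replicate number as a block, no fold threshold and leaving out each library. One gene that the rule names is not reported here.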

Additional observations from a re-analysis of the deposited data

How the results depend on the processing

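Beside the 602 genes called higher and 1137 lower, DESeq2 called 591 and 1072, and 1486 of its 1663 genes were called by both tools in the same direction. Requiring at least 10 counts in every library left 417 genes called higher and 696 lower, of fewer genes tested, and the cause was not tested. Without a fold threshold 4237 were higher and 4272 lower. Leaving out 1 library gave 578 to 744 higher and 1045 to 1362 lower, with both highest counts without control replicate 2. The median of chromosome 4 beyond MTTP was -0.26 to -0.22 when 1 library was left out and -0.31 with upper quartile scaling. In checks chosen after seeing the data it was -0.19 with protein-coding genes only, -0.19 without called genes and -0.22 after GC centring. MTTP stayed called in every setting run, at -2.94 to -2.83. Of 106 other named genes that were called, 95 kept their call in every setting that tested them, and the rest lay near a log2 fold change of 1. SERPING1 was called with DESeq2 (1.01).

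Same-numbered libraries of the groups did not deviate together (correlations 0.08, 0.04 and -0.04), so the numbers were not taken to pair them. With the replicate number as a block, 615 genes were higher and 1115 lower, and the median beyond MTTP was -0.24. Among named genes the sign turned for those near 0: OSTC with upper quartile scaling (-0.0469), and, when 1 library was left out, APOB (-0.188 to 0.0613), LAMTOR3 (-0.0933 to 0.0393), ADH5 (-0.0529 to 0.00851) and OSTC (-0.000955 to 0.0581). Of the list medians, that of coagulation turned to 0.01 without Mko-3 replicate 2, that of the alcohol dehydrogenase cluster to 0.01 without Mko-3 replicate 3, that of the collagens to 0.07 with at least 10 counts in every library, and that of the UDP-glucuronosyltransferase and steroid list to -0.03 there and to just below 0 with upper quartile scaling. Genes near the minimum count have wide errors at this depth.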
